A study of Homo sapiens with 4 samples.

Results

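The 51 genes described here encode the machinery that copies DNA in S phase and the regulators that let a cell enter it. They were taken as the rows of the deposited expression table, which holds 18806 gene symbols, whose name equals a listed symbol, and all 51 were found. RNA-seq was done in Huh7, a cell line from a human hepatocellular carcinoma, and the cells derived from 1 clone with stable Cas9. All 4 libraries came from cells that had received a lentiviral guide RNA and had been selected with hygromycin B. In sgNS, the control group of 2 libraries, the genotype is labelled WT. In sgMETTL16, also 2 libraries, the cells had received guide RNA against METTL16, an RNA m6A methyltransferase. The sample labels call this genotype METTL16 knockdown and the study calls it METTL16 KO. Since every cell came from 1 Cas9 clone, the clone limits the comparison, and whether the sgMETTL16 libraries carried the same guide is not given in the sources used here. The comparison asks how the level of each replication transcript differed after METTL16 was targeted.

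Before S phase, the origin recognition complex (ORC), CDC6 and CDT1 load the MCM2-7 helicase onto DNA, which is called licensing, and geminin (GMNN) holds CDT1 in check. At the start of S phase, CDC45 and GINS join the helicase, the replicative polymerases and the sliding clamp PCNA copy the strands, and the short fragments of the lagging strand are trimmed and joined. Many of these genes are targets of E2F transcription factors, which also raise cyclin E at the G1/S transition.

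E2F factors bind sites of the kind TTTCCCGC, TTTGGCGC, TTTCGCGC or TTTGCCGC. These 8-letter words were searched on both strands, with overlapping matches counted, in the RefSeq promoter windows of GRCh38.p14, each 300 bases long. A window was at hand for 44 of the 51 genes, and MCM4, MCM5, GINS4, POLD3, RPA2, RPA3 and CCNE2 were not matched. At least 1 match was found in 24 of the 44 genes (54.5%), beside 613 of the 9331 tested genes with a window (6.57%). Of all 35116 windows in the table, 3.31% held a match. Windows of 4 genes are shown 5′ to 3′ from 250 bases before the start site to 5 bases after it, with the matches in capitals. LIG1, MCM6 and MCM7 are shown because they fell, and MCM3 because it rose although it belongs to the same helicase as MCM6 and MCM7. They lie on the minus strand, LIG1 at chr19:48170340-48170594, MCM6 at chr2:135876439-135876693, MCM7 at chr7:100101393-100101647 and MCM3 at chr6:52284738-52284992.
LIG1: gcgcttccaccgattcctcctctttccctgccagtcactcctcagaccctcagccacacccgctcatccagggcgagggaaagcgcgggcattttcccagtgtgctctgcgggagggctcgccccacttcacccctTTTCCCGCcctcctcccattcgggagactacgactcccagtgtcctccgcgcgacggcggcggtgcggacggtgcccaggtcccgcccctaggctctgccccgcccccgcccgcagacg
MCM6: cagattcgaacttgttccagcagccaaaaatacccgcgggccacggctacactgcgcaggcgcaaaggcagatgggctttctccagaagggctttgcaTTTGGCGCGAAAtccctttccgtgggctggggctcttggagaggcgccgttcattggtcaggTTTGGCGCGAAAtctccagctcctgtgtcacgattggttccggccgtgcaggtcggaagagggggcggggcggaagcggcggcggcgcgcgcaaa
MCM7: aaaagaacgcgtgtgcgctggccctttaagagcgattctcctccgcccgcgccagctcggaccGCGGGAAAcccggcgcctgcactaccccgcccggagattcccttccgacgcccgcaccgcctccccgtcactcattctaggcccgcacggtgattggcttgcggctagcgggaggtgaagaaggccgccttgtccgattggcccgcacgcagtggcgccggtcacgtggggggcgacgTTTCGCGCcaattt
MCM3: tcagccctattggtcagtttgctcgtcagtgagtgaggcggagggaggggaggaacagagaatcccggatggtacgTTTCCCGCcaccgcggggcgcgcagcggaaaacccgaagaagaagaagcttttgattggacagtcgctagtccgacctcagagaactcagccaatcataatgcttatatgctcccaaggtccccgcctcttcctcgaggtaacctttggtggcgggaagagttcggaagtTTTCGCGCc
In MCM6 the 4 matches formed 2 pairs, each of overlapping matches. MCM3, which rose, and MCM7, which fell, each held 2 matches, 1 of them at or next to the start site. MCM7 has 3 windows in the table, of which the 2 not shown held 0 matches, and a gene was counted when any of its windows held a match. Among the 24 genes with a match, 12 were lower and 5 higher in sgMETTL16, with a median log2 fold change of -0.11, while of all 613 tested genes with a match 157 were lower and 294 higher, with a median of 0.13. Among the 20 genes without one, 9 were lower and 6 higher, with a median of -0.069, while of all 8718 such genes 2180 were lower and 4436 higher, with a median of 0.17. Both directions thus occurred with and without a match, and a match is a description of the sequence only.

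The deposited values are TPM, the share of a library's transcripts that a gene takes, corrected for transcript length, so levels can be compared between genes. Mean levels ran from 8.14 TPM (CCNE2) to 503 TPM (PCNA) in sgNS and from 11.7 TPM (E2F2) to 361 TPM (PCNA) in sgMETTL16, and all 51 genes passed the filter of a mean of at least 1 TPM. The coefficient of variation (the SD as a percent of the mean) between the 2 libraries of a group had a median of 2.67% and was at most 18.3%, in CCNE2 in sgNS. Each gene was tested with limma on log2(TPM + 0.1) together with all 11971 genes that passed the filter, and a gene was called at a Benjamini-Hochberg adjusted p under 0.05 over all of them. Fold changes are given on that log2 scale with the standard error (SE). The depth is unknown, since read counts cannot be had from TPM. An exact two-sided permutation test of 1 gene cannot go below p = 0.33 with 2 libraries against 2. METTL16 itself stood at 26.3 and 25.1 TPM (sgNS) against 17.6 and 18.8 TPM (sgMETTL16) (log2 fold change -0.50, SE 0.062, adjusted p = 2.4e-05). Its transcript was therefore lower but present. Protein was not measured in these libraries, and the transcript level does not give the protein level. The study presents Western blots of METTL16 KO efficiency in Huh7 cells. All 9 hepatocyte and hepatoma markers looked at were above 1 TPM on average. As deposited, 7 of them were called higher in sgMETTL16 (ALB, AFP, APOA1, TTR, SERPINA1, FGB and HNF4A) and 2 lower, TF with a log2 fold change of -0.43 and APOB with -0.17. AFP, with a mean of 1765 TPM in sgNS and 10292 TPM in sgMETTL16, took the largest part in the rise of their summed level, which was 18049 and 18139 TPM in sgNS and 31365 and 30899 TPM in sgMETTL16. Of 11 markers of leukocytes, endothelium, stroma, bile duct and glia, 8 never reached 1 TPM, the list summed to between 6.77 and 7.77 TPM in each library, and VWF, ACTA2 and GFAP were each listed at 0 in a library. The 100 most abundant genes took 32.6% and 32.8% of the TPM in sgNS and 28.6% and 28.7% in sgMETTL16. The part of these differences and of the hepatocyte markers in the results below was not tested.

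In sgMETTL16, 25 of the 51 replication genes were lower (49.0%) and 12 were higher (23.5%), while 14 were not called. Over all genes tested the order was the opposite, with 25.6% lower and 50.1% higher. The median log2 fold change was -0.078 over the 51 genes and 0.16 over all genes, and 42 of the 51 lay below the median of all genes. Because TPM values share a fixed total, the rise of the median gene depends on scaling. After median-ratio scaling, in which a library is divided by its median ratio to the geometric mean of all libraries, the median of all genes was -0.0016, and 32 replication genes were lower (62.7%) and 3 higher (5.88%), beside 36.5% and 36.4% of all genes. Median-ratio scaling lowers each fold change by about the same amount, so genes called lower as deposited could hardly lose that call. All 25 lower genes were also lower under it and under quantile normalization (49.0%), beside 25.3% of all genes, of which 3028 of 3065 kept the call. Of the 12 higher genes, only MCM3 and CCNE2 (3.92% of the 51) remained higher under both, beside 34.8% of all genes. In these cultures, fewer cells in S phase and less of a transcript per cell cannot be told apart. The groups did not overlap in 44 of the 51 genes (86.3%), which is close to the 87.4% over all genes.

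**Figure D1:**
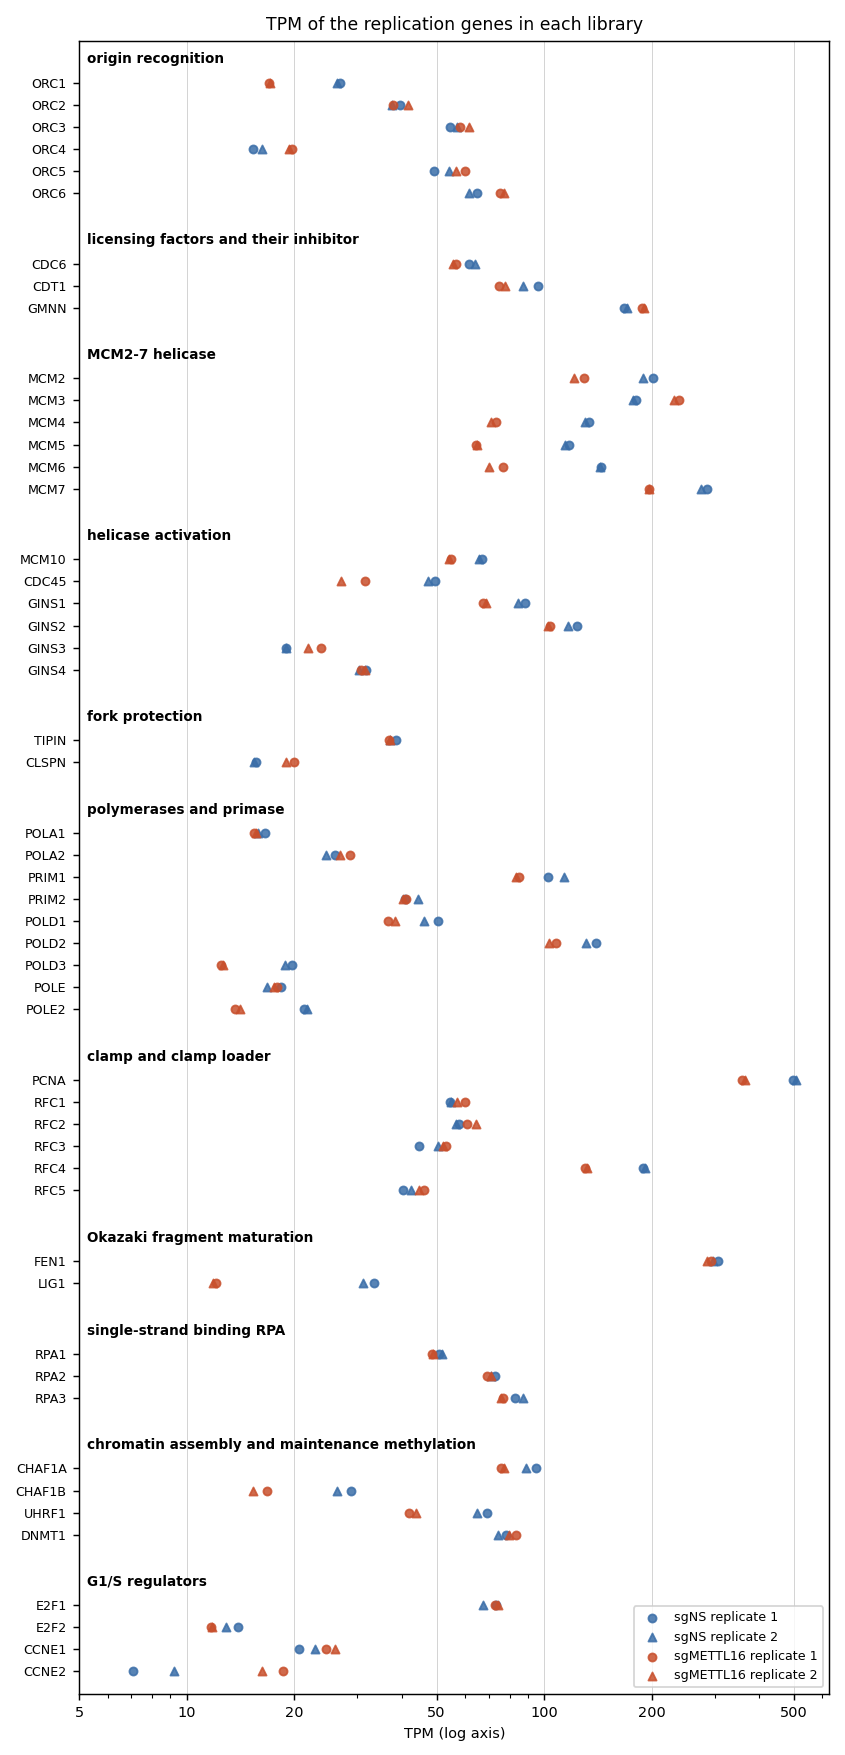
TPM (log axis) of each of the 51 replication genes in the 2 sgNS libraries (blue) and the 2 sgMETTL16 libraries (orange), with circles for replicate 1 and triangles for replicate 2, grouped by role. LIG1, MCM4, MCM5 and MCM6 show orange points far to the left of the blue ones, and MCM3 and CCNE2 show the reverse.

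**Figure D2:**
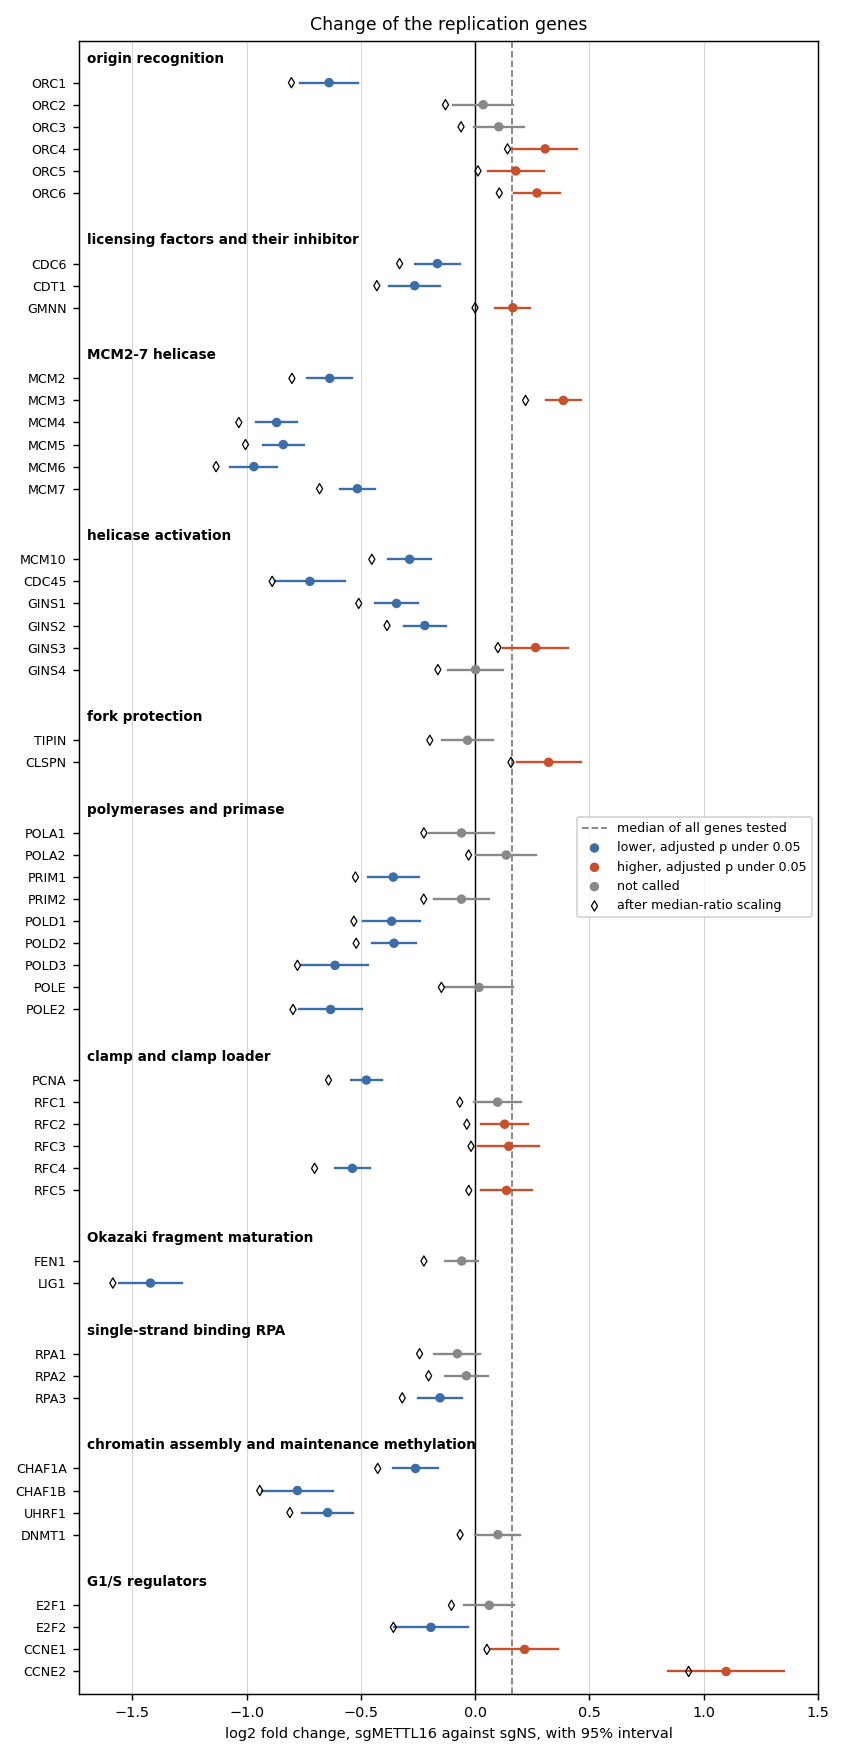
Log2 fold change of sgMETTL16 against sgNS for each of the 51 genes with its 95% interval from limma, coloured by call, with the median of all genes tested (0.16) as a dashed line. Open diamonds give the value after median-ratio scaling, which moves all genes to the left by about the same amount, so that 32 genes are lower and 3 higher.

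A change of at least 1 on the log2 scale at an unadjusted p under 0.01 was found in 1 gene in each direction, LIG1 among the lower and CCNE2 among the higher, beside 3.75% and 7.69% of all genes. LIG1, the DNA ligase that seals the fragments of the lagging strand, spans bases 48115445 to 48170603 of chromosome 19 (GRCh38, minus strand). It had 33.3 and 31.2 TPM in the sgNS libraries and 12.1 and 11.9 TPM in the sgMETTL16 libraries. Both sgMETTL16 libraries were at 0.37 times the sgNS level, and the log2 fold change was -1.42 (SE 0.063, adjusted p = 7.8e-09). FEN1, the nuclease that trims the flap before LIG1 acts, was at 306 and 297 TPM with sgNS against 293 and 286 TPM with sgMETTL16. FEN1 was not called (log2 fold change -0.059, 95% interval -0.13 to 0.014), and after median-ratio scaling it was called lower at -0.22. The ratio of LIG1 to FEN1 within a library fell by 1.37 on the log2 scale. Such a ratio does not depend on how libraries are scaled by a single factor. At the other end, CCNE2, which encodes cyclin E2, a partner of CDK2 at the entry into S phase, stood at 7.08 and 9.19 TPM (sgNS) against 18.63 and 16.23 TPM (sgMETTL16). Its log2 fold change was 1.10 (SE 0.12, adjusted p = 6.7e-06), and its sgNS libraries were the least alike of all 51 genes. Without sgNS replicate 1, without sgMETTL16 replicate 1 and after either other scaling, CCNE2 was still higher but below a log2 fold change of 1.

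The MCM2-7 helicase, a ring of 6 related subunits that unwinds the DNA, had 5 lower genes (83.3%) and 1 higher gene, MCM3 (16.7%). Of all genes tested, 25.6% were lower and 50.1% higher. MCM6 (bases 135839626 to 135876443 of chromosome 2) had 144 and 143 TPM in the sgNS libraries and 76.5 and 70.3 TPM in the sgMETTL16 libraries (log2 fold change -0.97, SE 0.046, adjusted p = 1.5e-08). MCM4 went from 134 and 130 TPM to 73.5 and 71.1 TPM (log2 fold change -0.87, SE 0.040). MCM5 went from 117 and 114 TPM to 64.5 and 64.8 TPM (log2 fold change -0.84, SE 0.040). These 3 subunits were thus at 0.51 to 0.56 times their sgNS level. MCM2 was at 201 and 189 TPM with sgNS against 130 and 121 TPM with sgMETTL16 (log2 fold change -0.64, SE 0.045). MCM7, the most abundant subunit in sgNS, went from 286 and 275 TPM to 196 and 197 TPM (log2 fold change -0.52, SE 0.034). The adjusted p-values of the 5 lower subunits ranged from 1.2e-08 for MCM4 to 2.9e-07 for MCM2.

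MCM3 (bases 52264014 to 52284881 of chromosome 6) stood at 181 and 178 TPM (sgNS) against 239 and 230 TPM (sgMETTL16). Both sgMETTL16 libraries lay above both sgNS libraries (log2 fold change 0.39, SE 0.035, adjusted p = 2.1e-06), and the value was 0.22 after median-ratio scaling and 0.33 after quantile normalization. Relative to the geometric mean of the other 5 subunits in the same library, MCM3 was at 0.11 and 0.14 on the log2 scale in sgNS and at 1.28 in both sgMETTL16 libraries, a difference of 1.15. MCM3 made up 17.003% and 17.263% of the summed TPM of the 6 subunits in sgNS and 30.6% and 30.5% in sgMETTL16. The order of levels in sgNS was MCM7, MCM2, MCM3, MCM6, MCM4 and MCM5. In sgMETTL16 MCM3 came first, before MCM7 and MCM2, and the values of MCM6 and MCM4 overlapped.

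**Figure D3:**
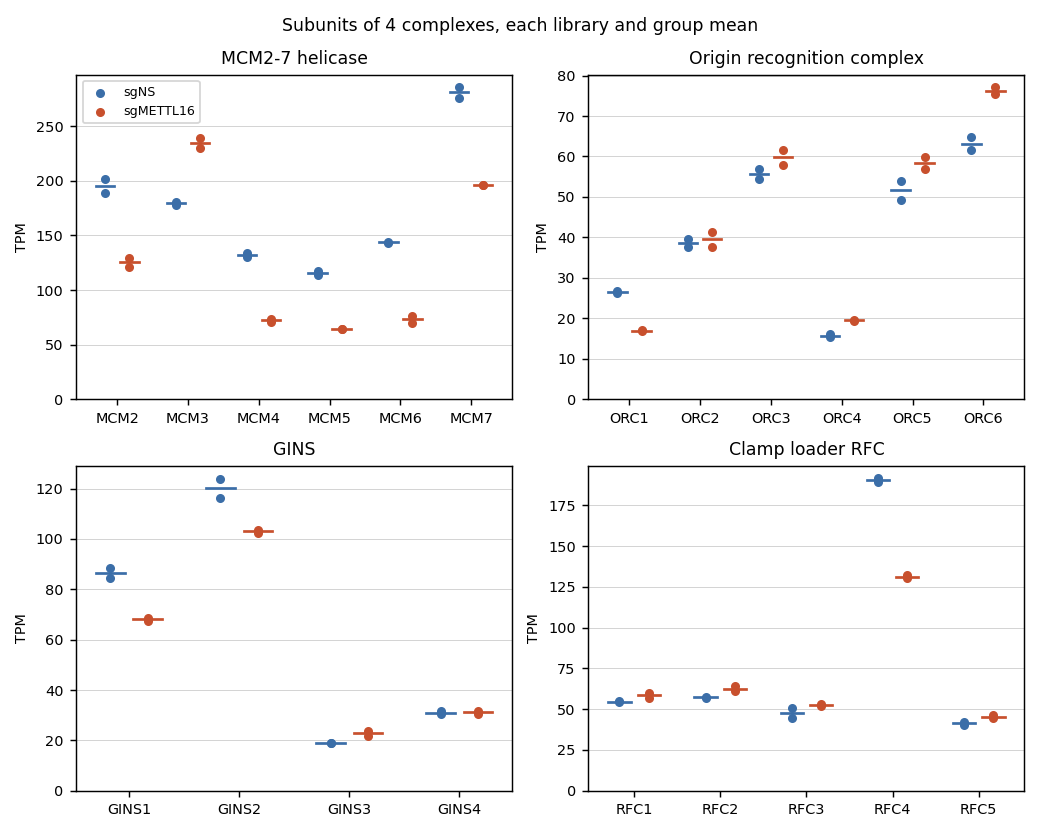
TPM of the subunits of the MCM2-7 helicase, the origin recognition complex, GINS and the clamp loader RFC in each library (points), with the group mean as a line, for sgNS (blue) and sgMETTL16 (orange) on linear axes that start at 0. In each complex the subunits moved unequally, with MCM3 above and the other 5 MCM subunits below sgNS, and with ORC1 and RFC4 as the called falls in their complexes.

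Among the proteins that mark and license origins, 1 of the 6 ORC genes was lower (16.7%) and 3 were higher (50%). Of all genes, 25.6% were lower and 50.1% higher. ORC1, the subunit whose protein is known to vary through the cell cycle, had 26.8 and 26.3 TPM in the sgNS libraries and 16.96 and 17.07 TPM in the sgMETTL16 libraries (log2 fold change -0.64, SE 0.058, adjusted p = 1.9e-06). No other gene of the 6 was called lower. ORC4, with 15.32 and 16.19 TPM against 19.7 and 19.3 TPM, was higher (log2 fold change 0.31), as were ORC6 (64.8 and 61.6 against 75.3 and 77.2 TPM, 0.27) and ORC5 (49.3 and 54.0 against 59.9 and 56.8 TPM, 0.18). None of these 3 was called after median-ratio scaling, where their log2 fold changes were 0.14, 0.11 and 0.012. ORC6 was still called higher after quantile normalization (0.15, adjusted p = 0.013), where ORC4 and ORC5 were not called. ORC2 (39.6 and 37.6 against 37.6 and 41.5 TPM) and ORC3 (54.4 and 57.0 against 58.0 and 61.7 TPM) were not called, with 95% intervals of the log2 fold change from -0.095 to 0.17 and from -0.0057 to 0.21. Relative to the mean of the other 5 subunits, ORC1 fell by 0.82 on the log2 scale. The loading factor CDT1 was at 96.1 and 87.4 TPM with sgNS against 75.0 and 77.6 TPM with sgMETTL16 (log2 fold change -0.26, adjusted p = 6.2e-04). CDC6, which works with ORC and CDT1, went from 61.7 and 64.1 TPM to 56.5 and 55.6 TPM (-0.17, adjusted p = 0.0059). Geminin (GMNN), the inhibitor of CDT1, went the other way as deposited, from 167 and 170 TPM to 188 and 190 TPM (0.17, adjusted p = 0.0011). It was at -5.0e-04 after median-ratio scaling and still called higher after quantile normalization (0.097, adjusted p = 0.022). The ratio of CDT1 to GMNN within a library fell by 0.43 on the log2 scale.

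Of the genes that turn the loaded ring into an active helicase, CDC45 fell most. It stood at 49.4 and 47.2 TPM (sgNS) against 31.5 and 27.1 TPM (sgMETTL16) (log2 fold change -0.72, SE 0.069, adjusted p = 3.2e-06). MCM10, an activation factor that is not part of the ring, went from 66.9 and 65.8 TPM to 54.7 and 54.0 TPM (-0.29). The GINS complex has 4 subunits, and they did not move as 1. GINS1 went from 88.3 and 84.6 TPM to 67.4 and 68.7 TPM (-0.34), and GINS2 went from 124 and 116 TPM to 104 and 102 TPM (-0.22), both called lower. GINS3 had 18.95 and 18.91 TPM in the sgNS libraries and 23.8 and 21.8 TPM in the sgMETTL16 libraries (0.26, adjusted p = 0.0030), and was not called after median-ratio scaling (0.0996). GINS4, with 31.8 and 30.3 TPM against 30.6 and 31.6 TPM, had overlapping groups and a 95% interval from -0.12 to 0.12. Among the fork protection genes, CLSPN, which relays the replication checkpoint, was higher as deposited (15.6 and 15.4 against 19.9 and 18.9 TPM, 0.32, adjusted p = 7.8e-04). CLSPN was still called higher after median-ratio scaling (0.16, adjusted p = 0.041) and was not called after quantile normalization (0.13). TIPIN was not called (38.5 and 37.0 against 36.7 and 37.0 TPM, 95% interval -0.14 to 0.077) but was called lower after median-ratio scaling, at -0.20.

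Of the 9 polymerase and primase genes, 5 were lower (55.6%, beside 25.6% of all genes) and 4 were not called. POLE2, the second subunit of the leading-strand polymerase epsilon, was at 21.3 and 21.7 TPM with sgNS against 13.6 and 14.1 TPM with sgMETTL16 (log2 fold change -0.63, SE 0.062, adjusted p = 4.1e-06). POLE, the catalytic subunit, was at 18.4 and 16.7 TPM against 17.9 and 17.6 TPM and was not called (95% interval -0.13 to 0.17). The ratio of POLE2 to POLE fell by 0.65 on the log2 scale. The 3 genes of the lagging-strand polymerase delta among the 51 were lower. Its subunit POLD4, outside the 51, was higher, with log2 fold changes of 0.39 as deposited and 0.23 after median-ratio scaling. POLD3 went from 19.7 and 18.8 TPM to 12.5 and 12.7 TPM (-0.61, adjusted p = 7.6e-06). The catalytic subunit POLD1 went from 50.4 and 46.1 TPM to 36.6 and 38.2 TPM (-0.37, adjusted p = 1.3e-04), and POLD2 went from 139 and 131 TPM to 108 and 103 TPM (-0.36, adjusted p = 2.5e-05). In the polymerase alpha and primase complex, which lays down the primers, only the small primase subunit PRIM1 was lower as deposited, from 102 and 114 TPM to 84.8 and 83.6 TPM (-0.36, adjusted p = 6.8e-05). POLA1 (16.5 and 15.8 against 15.4 and 15.6 TPM), POLA2 (25.9 and 24.5 against 28.6 and 26.9 TPM) and PRIM2 (40.8 and 44.3 against 41.2 and 40.4 TPM) were not called, with log2 fold changes of -0.060, 0.14 and -0.060. After median-ratio scaling POLA1 and PRIM2 were called lower, at -0.22 and -0.23.

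PCNA, the sliding clamp and the most abundant of the 51 transcripts, stood at 498 and 507 TPM (sgNS) against 358 and 365 TPM (sgMETTL16) (log2 fold change -0.48, SE 0.030, adjusted p = 1.3e-07). Of the 5 subunits of replication factor C (RFC), which loads the clamp, RFC4 was lower, from 189 and 192 TPM to 130 and 132 TPM (-0.54, SE 0.035, adjusted p = 1.6e-07). RFC2, RFC3 and RFC5 were called higher as deposited, with log2 fold changes of 0.13, 0.15 and 0.14, but were between -0.036 and -0.018 after median-ratio scaling and were not called there. RFC1, the large subunit, was not called (54.6 and 54.8 against 60.2 and 57.0 TPM, 0.098). Relative to the mean of the other 4 subunits, RFC4 fell by 0.67 on the log2 scale, and it was still the most abundant RFC subunit in each library.

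The 3 subunits of RPA, which coats single-stranded DNA, held 1 called gene (33.3% lower, beside 25.6% of all genes). RPA3 was lower (82.8 and 87.2 against 76.9 and 75.9 TPM, log2 fold change -0.15, adjusted p = 0.0074). RPA1 (50.8 and 51.8 against 48.5 and 48.7 TPM) and RPA2 (73.0 and 71.0 against 69.1 and 71.2 TPM) were not called, with 95% intervals from -0.18 to 0.022 and from -0.13 to 0.057. All 3 were called lower after median-ratio scaling, at -0.24, -0.20 and -0.32 for RPA1, RPA2 and RPA3.

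Of the 4 genes that restore chromatin behind the fork, 3 were lower (75.0%, beside 25.6% of all genes). CHAF1B, a subunit of the histone chaperone CAF-1, went from 28.9 and 26.3 TPM to 16.7 and 15.3 TPM (log2 fold change -0.78, SE 0.070, adjusted p = 2.0e-06). CHAF1A, its large subunit, went from 94.7 and 89.0 TPM to 75.8 and 77.4 TPM (-0.26, adjusted p = 2.8e-04). UHRF1, which recognises hemimethylated DNA and recruits the maintenance methyltransferase DNMT1, went from 69.1 and 64.8 TPM to 41.8 and 43.7 TPM (-0.65, SE 0.050, adjusted p = 6.4e-07). DNMT1 itself had 78.0 and 74.4 TPM in the sgNS libraries and 83.4 and 79.9 TPM in the sgMETTL16 libraries and was not called (95% interval 0.00098 to 0.20, adjusted p = 0.062). The ratio of UHRF1 to DNMT1 fell by 0.75 on the log2 scale.

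Of the 4 G1/S regulators, which act upstream of S phase, 1 was lower (25%), 2 were higher (50%) and E2F1 was not called. These shares are close to the 25.6% lower and 50.1% higher of all genes. E2F1 had overlapping groups, with 73.5 and 67.5 TPM in sgNS and 72.6 and 74.3 TPM in sgMETTL16 (log2 fold change 0.062, 95% interval -0.048 to 0.17). E2F2 was lower by a small amount, from 13.9 and 12.9 TPM to 11.7 and 11.8 TPM (-0.19, adjusted p = 0.031). CCNE1, the other cyclin E, was higher as deposited (20.6 and 22.9 against 24.5 and 26.0 TPM, 0.22, adjusted p = 0.012) and at 0.051 and not called after median-ratio scaling. The call of E2F2 was lost without sgNS replicate 1 (-0.14, adjusted p = 0.14), without sgMETTL16 replicate 1 (-0.19, adjusted p = 0.13) and without sgMETTL16 replicate 2 (-0.20, adjusted p = 0.11).

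Related genes outside the 51 gave the setting, from 5 lists written by hand. Of 26 other replication factors tested, 7 were lower (26.9%) and 14 higher (53.8%), close to the 25.6% and 50.1% of all genes. Their median log2 fold change of 0.13 also lay near the 0.16 of all genes. Among them TIMELESS, the partner of TIPIN in the fork protection complex, fell by 1.50 on the log2 scale, from 66.9 and 61.7 TPM to 23.1 and 22.4 TPM (adjusted p = 2.0e-09), although TIPIN was not called. CHTF18, a subunit of an alternative clamp loader, fell by 1.3046, and RNASEH2A, the catalytic subunit of RNase H2, fell by 0.55. POLE4, a small subunit of polymerase epsilon, rose with a log2 fold change of 1.18, from 42.3 and 39.0 TPM to 89.8 and 94.8 TPM. RNASEH2B and MCM9 were higher at 0.55 and 0.48. Of 21 genes of RB-E2F and G1/S control, 3 were lower (14.3%) and 10 higher (47.6%), with a median of 0.11. The larger rises were in CCND3, which encodes cyclin D3 (1.26), in E2F4 (0.82), and in FBXW7, which targets cyclin E for degradation (0.63). E2F5 (-0.48), CCND1, which encodes cyclin D1 (-0.25), and E2F7 (-0.23) were the lower ones.

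Of 12 genes of the S-phase checkpoint, 1 was lower (8.33%) and 6 higher (50%), with a median of 0.13. Of all genes, 25.6% were lower and 50.1% higher as deposited, with a median of 0.16. RAD9A, part of the checkpoint clamp, was at 0.88, ATRIP at 0.58 and BRCA1 at 0.37, whereas WEE1 was at -0.13. Of 12 genes of nucleotide supply, 5 were lower (41.7%) and 4 higher (33.3%), with a median of -0.054. DUT, which removes dUTP, fell by 1.07 on the log2 scale, and RRM1 and RRM2, which encode subunits of ribonucleotide reductase, fell by 0.29 and 0.23. SAMHD1, which degrades nucleotides, was higher at 0.76, as were RRM2B at 0.35 and TK1 at 0.30. Of 23 mitosis genes, 9 were lower (39.1%) and 9 higher (39.1%), with a median of -0.022. BUB1B was at -0.51, ESPL1 at -0.47 and KIF23 at -0.40, while CENPE was at 0.81, CENPF at 0.52 and AURKA at 0.38. After median-ratio scaling, where 36.5% of all genes were lower and 36.4% higher, 10 were lower and 8 higher among the other replication factors, 10 and 6 in G1/S control, 3 and 3 in the checkpoint, 8 and 3 in nucleotide supply, and 15 and 5 in mitosis. No test compared the lists with each other, and each is described by its counts and its median.

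**Figure D4:**
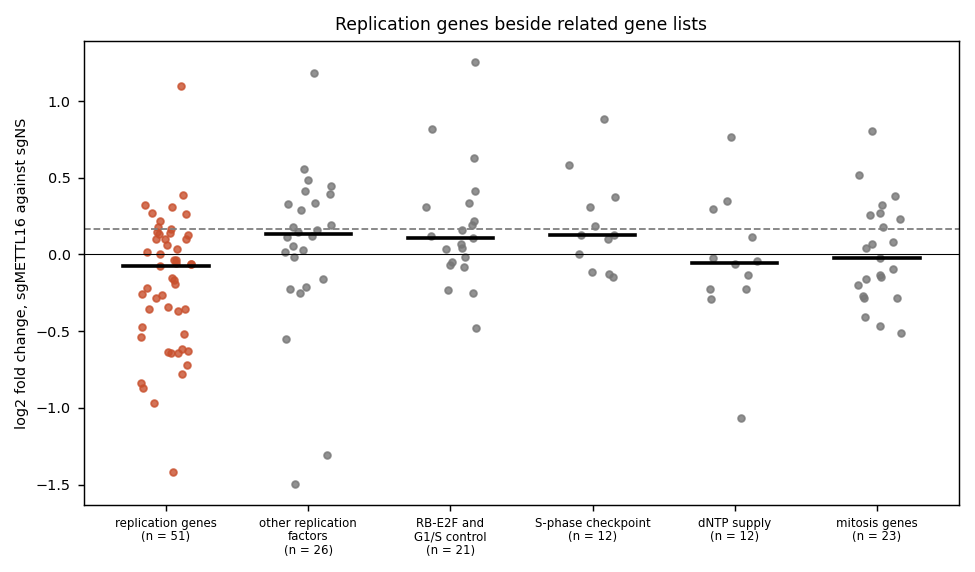
Log2 fold change of sgMETTL16 against sgNS for the 51 replication genes (orange) and for the tested genes of 5 related lists (grey), 1 point a gene, with the list median as a bar and the median of all genes tested as a dashed line at 0.16. The bars lie at -0.078 for the replication genes, 0.13, 0.11 and 0.13 for other replication factors, G1/S control and the checkpoint, and -0.054 and -0.022 for nucleotide supply and mitosis.

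Reads can be shared between neighbouring or similar genes. In GENCODE release 44, exons of 9 of the 51 genes overlap exons of another gene on the same strand, which strand cannot separate. Among them are PRIM1 with NACA, CHAF1B with MORC3, FEN1 with FADS2 and DNMT1 with S1PR2. Exons of 19 overlap a gene on the other strand, such as AP4M1 at MCM7, EIF4A2 at RFC4 and INTS8 at CCNE2. The kit marks strand, but whether the counting used it is not given in the sources used here. Pseudogenes named after 9 of the genes, PCNA and RPA2 among them, are annotated, so the values of these genes are less certain.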

How the data were processed

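RNA-seq libraries of Huh7 cells with sgNS or sgMETTL16 (2 each) were prepared with a stranded mRNA kit, although the labels also name ribosomal RNA depletion. According to the methods and the submitters' processing notes, the authors used Cutadapt for trimming, STAR for mapping to GRCh38 and RSEM for quantification. Versions and annotation are not given in the sources used here. The authors deposited 1 TPM value per gene symbol and library, called RPKM in the methods, but each column sums to 1000000. No read counts are kept, so no counting error can be given. No column was left out.

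From these values log2(TPM + 0.1) was computed for genes with a mean of at least 1 TPM and fitted with limma 3.58.1 in R 4.3.3 (lmFit, eBayes with trend, no block, two-sided), with Benjamini-Hochberg adjustment. The code was tested on simulated data. Whether the replicates were separate cultures is not stated beyond the word biological, so p-values rest on the spread between these libraries. For each gene, limma combined its own spread with that of all genes at a similar level. In limma without trend, the adjusted p of LIG1 was 1.7e-04 and that of MCM2 was 0.0012. The 51 genes and the other lists were chosen with earlier results of these data known. Every one of the 51 genes could be named, along with METTL16 and, in each other list, the 3 called genes (or fewer) that moved furthest up and down. POLD4, as a polymerase delta subunit, and CKS1B, as an example of an upward shift, were named outside this rule. Tables and figures were made with Python 3.11.15, pandas 2.3.3 and matplotlib 3.10.9. Alternatives were pseudocounts of 1 and 0.01, no filter and a minimum mean of 5 TPM, median-ratio scaling, quantile normalization, a replicate block, limma without trend, and each library left out in turn. DNA2, TFDP1 and RAD17, on the other lists, were not analysed here, and CCND2 did not pass the filter.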

Additional observations from a re-analysis of the deposited data

How the results depend on the processing

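Scaling moved the counts most. With median-ratio scaling the median log2 fold change of the 51 genes was -0.24, and 3 genes (MCM3, CCNE2 and CLSPN) were higher in place of 12. With the fold threshold, 4 were lower and 0 higher. With quantile normalization the median was -0.25, and 33 genes were lower and 4 (MCM3, CCNE2, ORC6 and GMNN) higher. Of all 11971 genes tested, 4248 were lower and 4420 higher under it. With the fold threshold 2 of the 51 were lower and 0 higher. Both scalings bring the median of all genes to about 0. Median-ratio scaling lowered the genes by construction, while the shift under quantile normalization differed between genes. Outside the 51 it could be upward, as in CKS1B, from 0.032 as deposited to 0.11. Under median-ratio scaling the sign turned in ORC2 (-0.13), ORC3 (-0.062), GMNN (-5.0e-04), GINS4 (-0.16), RFC1 (-0.067), RFC2 (-0.036), RFC3 (-0.018), RFC5 (-0.028), POLA2 (-0.029), POLE (-0.15), DNMT1 (-0.066) and E2F1 (-0.10). Under quantile normalization it turned in ORC2 (-0.11), ORC3 (-0.021), GINS4 (-0.17), RFC1 (-0.023), RFC5 (-0.014), POLA2 (-0.044), POLE (-0.17), DNMT1 (-0.037) and E2F1 (-0.071). Of these, GINS4 was called lower under both and POLE under quantile normalization, and GMNN, RFC2, RFC3 and RFC5 had been called higher as deposited.

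Leaving out 1 library gave medians from -0.12 to -0.075 over the 51 genes, beside 0.16 to 0.17 over all genes. Without sgMETTL16 replicate 1, MCM6 joined LIG1 past the fold threshold. Of the 37 called genes, 28 kept direction and call whichever library was left out, and ORC5, GINS3, RFC2, RFC3, RFC5, RPA3, CDC6, E2F2 and CCNE1 lost the call at least once. The sign of ORC2, GINS4 and POLE, none of them called, turned without at least 1 library, with ranges of -0.035 to 0.11 for ORC2, -0.032 to 0.035 for GINS4 and -0.051 to 0.085 for POLE. METTL16 was lower and called under each of the 12 alternatives, between -0.68 and -0.45 on the log2 scale. With the replicate block, 25 genes were lower and 12 higher, beside 3112 and 6048 of all 11971, with no call changed among the 51. Libraries with the same number did not deviate together (correlation across genes -0.044). With 2 libraries a group this cannot show what they shared in culture or preparation, which is not given in the sources used here. In limma without trend, 25 genes were lower and 8 higher, beside 2865 and 5716 of all 11971. ORC5, RFC2, RFC3 and RFC5 lost the call there. With no filter, 24 genes were lower and 9 higher, beside 2978 and 6502 of all 16350. The unknown depth and 2 libraries a group limit what small changes can show.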
